A study of Mus musculus with 4 samples.

Results

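The genes described here take up vitamin A, turn it into retinoic acid, break retinoic acid down, bind it or respond to it: *Stra6*, *Aldh1a1*, *Aldh1a2*, *Aldh1a3*, *Cyp26a1*, *Cyp26b1*, *Cyp26c1*, *Crabp1*, *Crabp2* and *Rarb*. They were chosen by name, as the non-control spots of the arrays whose gene name is that of one of the 10 genes. Such spots were found for 9 of the 10, with 15 probes and 24 spots on each array, out of 24813 genes with a symbol. *Crabp2* is not analysed here.

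The arrays hold RNA of whole mouse embryos of the strain C57BL/6, WT or with a knockout of *Dyrk2*, a protein kinase gene, at embryonic day 8.5 (E8.5) or at E10.5. Each of the 4 groups (WT E8.5, Dyrk2-KO E8.5, WT E10.5 and Dyrk2-KO E10.5) has 1 one-colour Agilent array, and the 4 arrays share 1 slide. The knockout was made with the CRISPR/Cas9 nickase system as 3 deletion alleles; which allele each Dyrk2-KO array holds, and how many embryos went into each RNA, is not given. The comparisons ask which transcripts differ between the genotypes at each stage and which differ between the stages within each genotype.

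Retinoic acid is a small signalling molecule that embryos make from vitamin A, first by oxidizing retinol to retinaldehyde and then by oxidizing retinaldehyde to the acid. It binds nuclear receptors that sit on DNA as dimers and switch on targets such as Hox genes, and enzymes of the Cyp26 family clear it, so that cells that make it and cells that destroy it set its gradients. In embryos of these ages it takes part in patterning the hindbrain, somites, heart, eye and limb buds.

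Levels are log2 intensities relative to the 75th percentile of the same array and stand in the order WT E8.5, Dyrk2-KO E8.5, WT E10.5, Dyrk2-KO E10.5, each for the brightest probe of the gene unless another is named. A gene was counted in a comparison when that probe was well above background on at least 1 of its 2 arrays, and was called changed at a ratio of 1.5-fold or more. Where a probe was not above background on 1 of the arrays, the fold is a bound, taken against the level of the dimmest probes there. Such bounds hold for the scanner software's own background subtraction, and ratios of dim probes were smaller under normexp, another background correction, wherever that is given. With 1 array per group the spread between embryos is unknown, and the only measured error is that between spots of 1 probe, whose median SD over 300 probes printed repeatedly was 0.09, 0.12, 0.07 and 0.08 on the 4 arrays.

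Before the members, the labels were set against genes that bear on them. The probe NM_001014390 of *Dyrk2* (mm9, chr10:118296479-118296538) read 0.06, 0.76, −0.31 and 0.34. It was 1.62-fold higher at E8.5 and 1.57-fold higher at E10.5 on the array labelled Dyrk2-KO, a log2 difference that shrank to 0.15 at E8.5 when arrays were scaled by spike-in controls. The other probe, XM_006514046 (chr10:118295164-118295223), was 1.02-fold and 1.21-fold higher, and its E8.5 difference was −0.52 under spike-in scaling and −0.23 without scaling. So the brightest *Dyrk2* probe read higher, not lower, on both arrays labelled Dyrk2-KO, and the transcript does not check the labels. The RNA that silences an X chromosome, *Xist*, passed background on 1 array alone, Dyrk2-KO E10.5, at −0.37, at least 20.4-fold above WT. The Y-linked genes *Ddx3y*, *Eif2s3y*, *Kdm5d* and *Uty* were above background on the other 3 arrays and at least 6.72-, 43.2-, 39.0- and 6.71-fold lower on that one. Under normexp the E10.5 log2 ratio was 3.01 for *Xist* and −1.46, −3.24, −3.34 and −1.19 for the Y-linked genes. Genotype and sex chromosomes thus cannot be told apart at E10.5. Nor can stage and sex chromosomes in Dyrk2-KO, where the same 5 genes differed between E8.5 and E10.5.

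At E8.5, 2 of the 9 members measured were changed, against 9.71% of 15826 genes. Both, *Aldh1a3* and *Cyp26b1*, were higher on the array labelled Dyrk2-KO, where 4.25% of genes were higher, and 0 members were lower, against 5.46% of genes. At E10.5, 0 of 8 members were changed, against 6.81% of 16164 genes, with 2.77% higher and 4.05% lower. The members had a median log2 ratio of 0.11 at the earlier stage and −0.03 at the later, against −0.03 and −0.02 over all genes. Scaling by spike-ins moved the median of all genes at E8.5 to −0.58, and no scaling moved it to −0.29. Under spike-in scaling 7895 of the 15826 genes were called at E8.5 and 4 of the 9 members, with *Aldh1a3* higher and *Aldh1a2* (−0.81), *Rarb* (−0.61) and *Stra6* (−0.71) lower, and *Cyp26b1* at 0.29 was not called. Without scaling only *Aldh1a3* was called, with *Cyp26b1* at 0.58. At E10.5 the same scalings moved that median to 0.15 and −0.15, and no member was called.

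In WT embryos, 6 of 9 members were changed between E8.5 and E10.5, against 37.6% of 16498 genes. *Cyp26c1*, among the 6, passed the filter through its E8.5 array alone and so had to differ. With the filter on both arrays, 5 of 8 members were changed, beside 4797 of 14953 genes. *Aldh1a1*, *Aldh1a3* and *Cyp26b1* were higher at E10.5, as were 19.3% of genes, and *Aldh1a2*, *Cyp26a1* and *Cyp26c1* were lower, as were 18.3%. On the arrays labelled Dyrk2-KO, which are not shared with the WT stage comparison, 6 of 9 were changed, against 31.5% of 16249 genes (17.1% higher and 14.3% lower). They were the same 6 genes in the same directions, but not under every scaling or threshold. Here too *Cyp26c1* passed through its E8.5 array alone. With the filter on both arrays, 5 of 8 members were changed in Dyrk2-KO, beside 3845 of 14820 genes. Under spike-in scaling 8791 of the 16249 genes were called in Dyrk2-KO and 8 of the 9 members, 6 higher and 2 lower, with *Crabp1*, *Rarb* and *Stra6* added and *Aldh1a2* lost, while the share of all calls that were lower went from 45.6% to 9.44%. Without scaling 6 were called there, with *Rarb* in place of *Aldh1a2*, and 7 in WT, with *Rarb* added. The medians over the members were 0.22 in WT and 0.26 in Dyrk2-KO, against −0.09 and −0.07 over all genes. In bulk RNA of whole embryos, fewer cells of a type and less RNA per cell cannot be told apart, and this holds for every difference given here.

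A limma fit over the 4 arrays, with genotype and stage as additive terms and 1 residual degree of freedom, called 0 of 9 members for genotype at an adjusted p (Benjamini-Hochberg) under 0.05, against 0.0187% of 16051 genes. At an unadjusted p under 0.05, 1 member passed, *Aldh1a3*, beside 1592 of the 32289 probes tested. Over the alternative settings the number of members that passed was 0 to 3. For stage the fit called 41.5% of genes, 18.7% higher at E10.5 and 22.7% lower. Of the 8 members above background on all 4 arrays it called 6, with *Aldh1a1*, *Aldh1a3*, *Cyp26b1* and *Rarb* higher and *Aldh1a2* and *Cyp26a1* lower. *Cyp26c1*, which passed the filter through its E8.5 arrays alone and so had to differ, is not counted. The share of all genes, in contrast, covers those above background on 2 arrays or more. A refit limited to probes above background on all 4 arrays called 6 of 8 members for stage, beside 5832 of 14607 genes. Under spike-in scaling *Aldh1a2* and *Rarb* were not called. The residual of the fit holds both the spread between arrays and any genotype difference that changes with stage. Its p-values therefore do not measure the spread between embryos alone. The genotype and stage comparisons use the same 4 arrays and so are not independent. No test of whether the genotype difference itself differs between the stages was possible with these arrays.

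**Figure D1:**
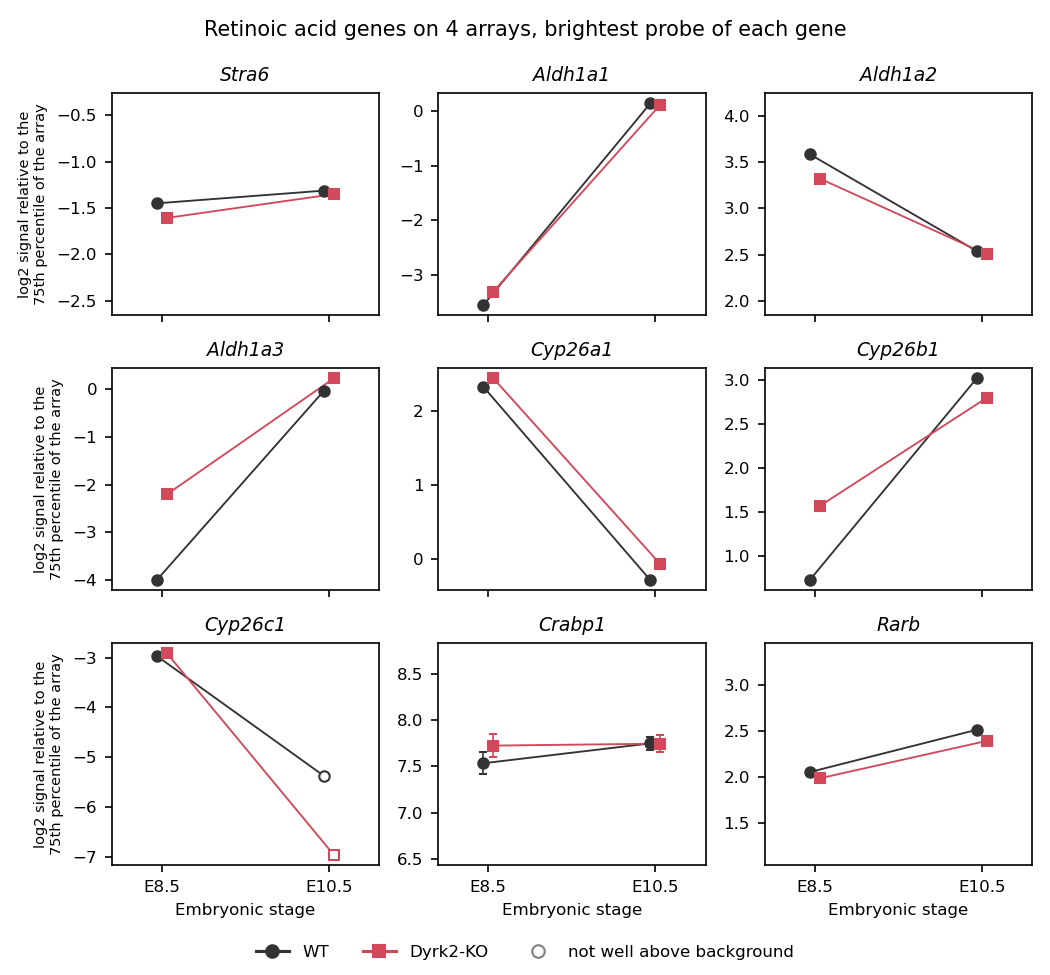
Level of each of the 9 members (y axis, log2 intensity relative to the 75th percentile of the array, with its own range in each panel) against embryonic day (x axis), with circles for WT and squares for Dyrk2-KO, 1 array each, open symbols for probes not well above background, and bars on Crabp1 for the SD over its 10 spots. Aldh1a3 on the E8.5 arrays stands at −4.00 in WT and −2.20 in Dyrk2-KO, and Cyp26b1 at 0.73 and 1.57, while Aldh1a1, Aldh1a2 and Cyp26a1 are apart mainly between the stages and both E10.5 symbols of Cyp26c1 are open.

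*Stra6* encodes the membrane receptor that takes up retinol from its carrier in blood. Its probe (NM_009291, chr9:58000379-58000990, across an intron) read −1.45, −1.61, −1.31 and −1.35. At these levels the 4 arrays lay close together, 1.12-fold lower on the array labelled Dyrk2-KO at E8.5 and 1.03-fold lower at E10.5. Spike-in scaling gave log2 ratios of −0.71 at E8.5, past 1.5-fold, and 0.12 at E10.5. Between the stages it was 1.1-fold higher at E10.5 in WT and 1.20-fold higher in Dyrk2-KO, and limma gave a stage difference of 0.20 with an adjusted p of 0.379. Under spike-in scaling the stage log2 ratios were 0.07 in WT and 0.90 in Dyrk2-KO, the latter past 1.5-fold.

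The 3 Aldh1a genes encode retinaldehyde dehydrogenases, which carry out the last step of synthesis. *Aldh1a2*, the form that makes most of the retinoic acid of the early trunk, read 3.59, 3.32, 2.54 and 2.50 (NM_009022, chr9:71143931-71143990). Both E8.5 arrays were high and both E10.5 arrays low. It was 1.20-fold and 1.03-fold lower on the arrays labelled Dyrk2-KO at E8.5 and E10.5, the latter turning to a log2 ratio of 0.13 under spike-in scaling. Between the stages it was 2.07-fold lower at E10.5 in WT and 1.77-fold lower in Dyrk2-KO, and limma gave −0.93 with an adjusted p of 0.000507. That call ended under spike-in scaling, where the limma difference was −0.65 with an adjusted p of 0.965, and the stage difference was −1.12 in WT and −0.18 in Dyrk2-KO. The same scaling moved the median of all genes in that comparison from −0.07 to 0.57.

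*Aldh1a1*, a form found in the dorsal part of the developing retina and in other tissues, read −3.55, −3.30, 0.14 and 0.11 (NM_013467, chr19:20717764-20717823). The stages stood far apart and the genotypes close together. It was 12.8-fold higher at E10.5 in WT and 10.6-fold higher in Dyrk2-KO, with a limma difference of 3.55 (SE 0.17) and an adjusted p of 1.61e-06. Under normexp the log2 differences were 2.38 in WT and 2.18 in Dyrk2-KO, against 3.68 and 3.41. At E8.5 it was 1.19-fold higher on the array labelled Dyrk2-KO, which became −0.30 on the log2 scale under spike-in scaling and −0.01 without scaling. At E10.5 it was 1.02-fold lower, or 0.14 on the log2 scale under spike-in scaling.

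*Aldh1a3*, which makes retinoic acid in the ventral retina and the nasal and facial tissue, read −4.00, −2.20, −0.03 and 0.23 at its brightest probe (NM_053080, minus strand, chr7:73535785-73535844). The WT E8.5 array was the lowest, the Dyrk2-KO E8.5 array stood between it and the E10.5 pair, and the E10.5 arrays were the highest. At E8.5 it was 3.47-fold higher on the array labelled Dyrk2-KO, a log2 ratio of 1.80. The spot SD of that ratio was 0.25, from the 15 repeatedly printed probes nearest in brightness. At E10.5 the ratio was 1.20-fold. From E8.5 to E10.5 it was 15.7-fold higher in WT and 5.42-fold higher in Dyrk2-KO, log2 differences of 3.97 and 2.44 that were 2.42 and 1.80 under normexp. The limma fit gave a genotype difference of 1.03 (SE 0.30), higher on the array labelled Dyrk2-KO at both stages, with an unadjusted p of 0.0077 and an adjusted p of 0.696. That adjusted p ranged from 0.000142 to 1 over the alternative settings, passing the threshold without scaling (0.00323) and with no filter on dim probes (0.000142). The E8.5 log2 ratio was higher on the array labelled Dyrk2-KO under every scaling and background correction tried, from 0.86 under normexp background correction to 1.80.

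The gene has 2 other probes, both toward its 5′ side. The probe ENSMUST00000174215 (chr7:73553907-73553966) was above background at E10.5 alone, at −2.93 in WT and −2.72 in Dyrk2-KO, 1.16-fold higher, so it gives no ratio at E8.5. Its level was at least 3.70-fold higher at E10.5 in WT and 3.49-fold in Dyrk2-KO. The probe ENSMUST00000173756 (chr7:73544841-73544900) was above background on none of the 4 arrays. The E8.5 difference in *Aldh1a3* therefore rests on a single probe, printed once on each array, and its first 30 bases are shown so that the measured stretch of the transcript can be found.
Aldh1a3 probe: ggggattttgatcttaagttcagattgtgt

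The 3 Cyp26 genes encode cytochrome P450 enzymes that hydroxylate retinoic acid and so remove it. *Cyp26a1*, whose product clears it in the tail bud and early head and which retinoic acid itself induces, read 2.33, 2.45, −0.29 and −0.08 (NM_007811, chr19:37775566-37775625). Both E8.5 arrays were high and both E10.5 arrays low, 6.17-fold lower in WT and 5.75-fold lower in Dyrk2-KO, and limma gave −2.58 with an adjusted p of 1.75e-06. Between the genotypes it was 1.08-fold higher at E8.5, turning to −0.43 on the log2 scale under spike-in scaling and −0.14 without scaling, and 1.16-fold higher at E10.5.

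Its chromosomal neighbour *Cyp26c1*, active in the hindbrain and cranial mesenchyme, read −2.97 and −2.91 at E8.5 and was not above background on either E10.5 array (NM_001105201, chr19:37765410-37765469). The E8.5 arrays differed by 1.04-fold, a log2 ratio of 0.06 that turned to −0.49 under spike-in scaling and −0.20 without scaling, and no ratio between the genotypes can be given at E10.5. Between the stages it was at least 3.36-fold lower in WT and at least 3.63-fold lower in Dyrk2-KO, and under normexp, which raises dim readings, the log2 differences were −0.74 and −0.97.

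*Cyp26b1*, which acts in the hindbrain, limb buds and later the gonad, read 0.73, 1.57, 3.02 and 2.80 (NM_175475, minus strand, chr6:84521952-84522011). The WT E8.5 array was the lowest, the Dyrk2-KO E8.5 array was next, and both E10.5 arrays were high. At E8.5 it was 1.79-fold higher on the array labelled Dyrk2-KO (log2 0.84, spot SD of the ratio 0.15) and at E10.5 1.17-fold lower (log2 −0.22, spot SD 0.12). The E8.5 log2 ratio was 0.29 under spike-in scaling and 0.58 without scaling, and neither was called. Between the stages it was 4.89-fold higher at E10.5 in WT and 2.34-fold higher in Dyrk2-KO. The log2 ratios were 2.29 and 1.23, or 2.22 and 1.87 under spike-in scaling. The limma fit gave a stage difference of 1.76 with an adjusted p of 0.000313. The genotype difference in the same fit was 0.31 with an adjusted p of 1. The gene has 1 probe, whose first 30 bases are shown for the same reason.
Cyp26b1 probe: gttcgtgtgtctcgttgtggtagcattaat

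Of the 2 cellular retinoic acid binding proteins among the 10 genes, *Crabp1* has a probe printed in 10 spots (NM_001284507, chr9:54620842-54620901), so its error within an array was measured directly. It read 7.53 ± 0.12, 7.72 ± 0.13, 7.75 ± 0.07 and 7.75 ± 0.09 (SD over the 10 spots). The WT E8.5 array was the lowest and the other 3 were alike within the spot SD. At E8.5 it was 1.14-fold higher on the array labelled Dyrk2-KO, which became −0.36 on the log2 scale under spike-in scaling and −0.07 without scaling, and the E10.5 log2 ratio was −0.00, or 0.16 under spike-in scaling. Its other probe (NM_013496, chr9:54616192-54616251) read 4.45, 4.84, 4.75 and 4.82 and gave 1.31-fold and 1.05-fold higher. For stage the brightest probe gave a limma adjusted p of 0.456.

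*Rarb* encodes a retinoic acid receptor and is itself a direct target of the acid. Its brightest probe (NM_011243, minus strand, chr14:17263511-17263570) read 2.05, 1.99, 2.51 and 2.39. The E10.5 arrays stood above the E8.5 arrays, 1.37-fold in WT and 1.32-fold in Dyrk2-KO, which is under the 1.5-fold threshold. Without scaling the log2 differences were 0.64 and 0.71, past it, and under spike-in scaling 0.39 and 1.04. The limma stage difference of 0.43 had an adjusted p of 0.0223, which became 0.104 without the intensity trend at the same difference, and 0.894 under spike-in scaling at a difference of 0.72. On the arrays labelled Dyrk2-KO it was 1.05-fold lower at E8.5 and 1.09-fold lower at E10.5, where spike-in scaling turned the log2 ratio to 0.04. A nearby probe (NM_001289760, chr14:17263889-17263947) read −0.43, −0.36, −0.00 and −0.07, with an adjusted p for stage of 0.0748, and the other 2 probes of the gene were above background on none of the arrays.

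Beyond the members, 49 genes used here were grouped by their part in the pathway. At E8.5, 43 of them were measured, of which 2 were higher in Dyrk2-KO and 6 lower (18.6%, against 9.71% of all genes), with a median of 0.03, and with values below background replaced by the floor the lower count was 5. Under spike-in scaling the counts were 0 higher and 18 lower, where 7895 of all 15826 genes were called. Without scaling they were 1 and 8, where 2566 genes were called, and under normexp 0 and 3, where 420 were called. The later stage had 0 of 41 changed, beside 6.81% of all genes, with a median of −0.05, against 2 higher under spike-in scaling and 1 lower without scaling. Between the stages 6 of 43 were higher and 10 lower in WT (37.2%, against 37.6% of all genes), and 7 and 10 of 42 in Dyrk2-KO (40.5%, against 31.5%). That balance turned with the scaling: in Dyrk2-KO 23 were higher and 7 lower under spike-in scaling and 11 and 7 without scaling, and in WT 11 and 8 without scaling. The limma fit called 0 genes of any of the 5 groups for genotype.

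**Figure D2:**
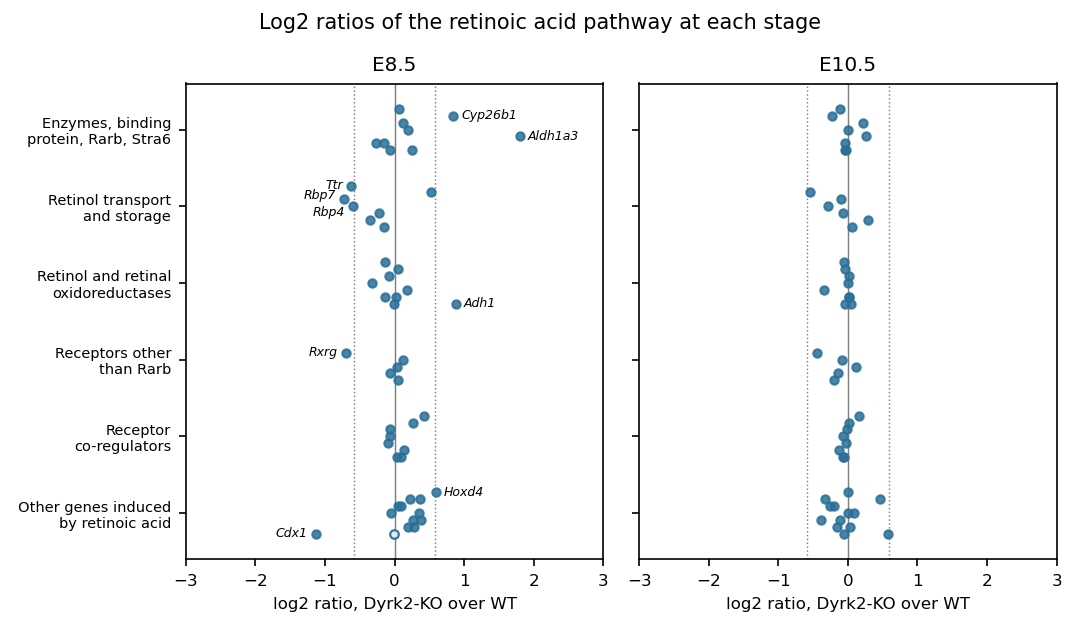
Log2 ratio of Dyrk2-KO over WT (x axis) for the measured members (top) and the measured genes of the 5 pathway groups (rows below), at E8.5 and at E10.5 in separate panels; each point is 1 gene on 1 pair of arrays, open circles are bounds, and dotted lines mark 1.5-fold. At E8.5 the points past the lines include Aldh1a3 at 1.80 and Cdx1 at −1.13, and at E10.5 no point lies past them.

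Of the genes that carry and store retinol, 7 of 10 were measured at E8.5, with 0 higher and 3 lower and a median of −0.36. Of all genes, 5.46% were lower there. The lower count of the group was 6 under spike-in scaling, with a median of −0.91, and 4 without scaling, with a median of −0.62. *Rbp4*, the retinol carrier of blood, read 4.50, 3.90, 1.78 and 1.49, a ratio of −0.59 at E8.5. *Ttr*, which binds Rbp4 protein in blood, read 2.50, 1.88, −0.69 and −1.24, a ratio of −0.63. Both were highest on the WT E8.5 array and lowest at E10.5. *Rbp7*, a retinol-binding protein inside cells, gave −0.72. The calls were lost for *Rbp4* under quantile normalization and in the deposited table (−0.51 in both) and for *Rbp7* under normexp (−0.11). These 3 genes, *Stra6l*, a receptor for the carrier, and *Lrp2*, an endocytic receptor, were lower at E10.5 in both genotypes, *Rbp7* by a bound. In Dyrk2-KO 4 genes of the group were lower under normexp, and under spike-in scaling 5 were lower and 2 others higher. Between the genotypes at E10.5, 0 of 6 were changed, or 1, lower, without scaling. *Rbp2*, *Lrat* and *Bco1* were below background on all 4 arrays.

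*Rbp4* and *Ttr* also belong to the 10 markers of yolk sac endoderm and are part of the list that is counted and summed here. All 10 were measured at E8.5 and 7, *Rbp4* and *Ttr* included, were lower on the array labelled Dyrk2-KO, with a median of −0.63. That lower count was 5 to 10 over the scalings and background corrections. At E10.5, 0 of 9 were changed, or 4, lower, without scaling, with a median of −0.29. The summed level of the 10 markers, in units of the 75th percentile of each array, was 54.6, 35.2, 21.2 and 17.5. The brightest by the mean over the 4 arrays, which is how the brightest marker of each list was taken, was *Afp*, at 3.46, 2.89, 4.03 and 3.76. The other 9 were lower at E10.5 in both genotypes. The medians of the list were −4.42 in WT and −4.16 in Dyrk2-KO, or −2.80 and −2.34 under normexp. *Apoa4*, and in Dyrk2-KO *Amn*, were above background at E8.5 alone and so had to differ. The part of yolk sac tissue in the lower *Rbp4* and *Ttr* values was not tested.

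Of the oxidoreductases acting on retinol and retinaldehyde, 9 of 12 were measured at E8.5 and 1 was changed, the alcohol dehydrogenase gene *Adh1*, higher by 0.87 at −4.04, −3.16, −1.71 and −1.75. That ratio was 0.33 under spike-in scaling, where 4 genes of the group were called lower, and 0.45 under normexp, so neither called it. At E10.5, 0 of 9 were changed. *Rdh10*, which makes the retinaldehyde that the Aldh1a enzymes use in embryos, was lower at E10.5 in WT (−0.76) and in Dyrk2-KO (−0.66), while *Adh1* was higher (2.33 and 1.41). In Dyrk2-KO 0 genes of the group were lower with stage under quantile normalization, spike-in scaling, no scaling or the deposited table, in WT 0 were lower without scaling, and 0 were higher in Dyrk2-KO under normexp. The higher count of 1 became 6 under spike-in scaling and 4 without scaling in Dyrk2-KO. In WT it became 3 without scaling and 2 under quantile normalization and in the deposited table. *Dhrs9*, *Adh4* and *Adh7* were below background on all arrays.

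All 5 receptors other than *Rarb* were measured, and at E8.5 1 was changed, *Rxrg*, a partner in receptor dimers, at 0.06, −0.65, −0.60 and −1.05, a ratio of −0.70, or −0.56 and not called under normexp. Under spike-in scaling 2 of the 5 were lower at E8.5. At E10.5, 0 of 5 were changed. Of the 8 co-regulators, through which the receptors repress or activate, 0 were changed at either stage between the genotypes, except that 3 were lower at E8.5 under spike-in scaling, and *Ncoa1*, a coactivator gene, was higher at E10.5 in WT (1.33) and in Dyrk2-KO (1.08).

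Of 14 other genes known to be induced by retinoic acid and used here, 1 was higher and 2 lower at E8.5, with a median of 0.20. *Hoxd4*, which patterns the hindbrain and neck, was 1.5-fold higher, a log2 ratio of 0.59 that shrank to 0.04 under spike-in scaling, 0.33 without scaling and 0.57 under normexp, none of them called. *Cdx1*, which sets the position of Hox expression along the trunk, read 4.67, 3.54, −1.53 and −0.96, with a ratio of −1.13 at the earlier stage and 0.57 at the later. It was high at E8.5 and low at E10.5 in both genotypes, 73.4-fold lower in WT and 22.5-fold lower in Dyrk2-KO. *Stra8*, a gene of germ cells entering meiosis, was counted lower from a WT level of −4.52 near background, and its bound was a log2 ratio of 0.00. Of 13 measured at E10.5, 0 were changed, or 2, higher, under spike-in scaling. With stage, *Hoxb1*, an early hindbrain gene, was lower at E10.5 (−2.87 in WT and −2.73 in Dyrk2-KO), and *Nr2f1*, a nuclear receptor gene, was higher (1.92 and 1.54).

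The genes whose levels over the 4 arrays were most like those of a member, by the Euclidean distance between log2 values centred on their means among 14606 genes above background on all arrays, were taken for 3 members. For *Aldh1a2* they were *Snhg14* (0.0292), *Cbln1* (0.0299) and *Deptor* (0.0311). For *Cyp26a1* they were *Smtnl2* (0.105), *Irs4* (0.171) and *Naaa* (0.206), farther off. For *Rarb* they were *Neto2* (0.0249), *Wwtr1* (0.0272) and *Prkx* (0.0315).

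The members' promoters were searched for direct repeats of the hexamer that each retinoic acid receptor contacts, which was AGGTCA or AGTTCA, or with G as its first base GGGTCA or GGTTCA, spaced by 5, 2 or 1 bases on both strands, in windows from 250 bases before to 50 after the start, from RefSeq on GRCm38.p6. The table held 12 promoters of 8 members, and *Aldh1a3* and *Crabp2* were missing from it. A repeat spaced by 5 bases was found for *Cyp26a1* and *Rarb*, and in 0.0974% of all 32851 promoters. Repeats spaced by 2 or 1 bases, held by 0.268% and 0.222% of promoters, were found for no member. The part of each of these promoters that holds the repeat is shown, on the strand of the gene, because both genes are known targets of the acid; capitals mark the repeat, 53 to 37 bases before the start of *Rarb* (chr14:16575477-16575596, minus strand) and 32 to 16 bases before the start of *Cyp26a1* (chr19:37697688-37697807, plus strand), where it reads on the opposite strand.
Rarb promoter: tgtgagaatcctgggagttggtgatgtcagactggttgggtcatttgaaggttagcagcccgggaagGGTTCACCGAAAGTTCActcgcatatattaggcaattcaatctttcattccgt
Cyp26a1 promoter: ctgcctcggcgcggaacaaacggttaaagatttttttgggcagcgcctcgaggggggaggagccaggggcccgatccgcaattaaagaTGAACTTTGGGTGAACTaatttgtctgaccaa
With stage these 2 genes moved in opposite directions, *Cyp26a1* lower at E10.5 and *Rarb* higher in the limma fit, and neither was changed between the genotypes. *Rarb* lost its call for stage, but not its direction, under spike-in scaling and without the intensity trend. Under spike-in scaling it was also called lower at E8.5 on the array labelled Dyrk2-KO (−0.61). A match of letters is a description and says nothing about binding.

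Marker lists for tissues in which the members are known to act were counted beside them. Of 10 tail bud markers, where *Cyp26a1* acts, all 10 were lower at E10.5 in both genotypes (9 in Dyrk2-KO under spike-in scaling), and the summed level was 49.9, 41.3, 6.97 and 6.20. *Msgn1* and *Nkx1-2* were above background at E8.5 alone and so had to differ, while the other 8 were above background on all arrays. Between the genotypes 1 was changed at E8.5, *Nkx1-2* (−0.63), and 3 of 8 at E10.5, *T* (−1.49), *Tbx6* (−1.66) and *Cdx2* (−0.71), all lower. The E8.5 count was 8 under spike-in scaling, 4 without scaling and 0 under normexp, and the E10.5 count was 2 under spike-in scaling and normexp. The brightest by that mean, *Rspo3*, read 2.67, 2.37, 1.32 and 1.41. Their part in the stage difference of *Cyp26a1* was not tested.

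Of the 5 optic vesicle markers used here, where *Aldh1a1* and *Aldh1a3* act, all 5 were measured at E8.5 and 1 was changed, *Six6*, at least 2.33-fold higher on the array labelled Dyrk2-KO, though 0 were higher under normexp and 2 others were lower under spike-in scaling. None of the 5 was changed at E10.5, except that 1 was lower without scaling. The summed level was 6.54, 6.38, 14.5 and 13.0. The brightest, *Lhx2*, read 1.90, 1.87, 3.62 and 3.45. The list did not move with stage as a whole: 2 markers were higher and 2 lower at E10.5 in WT, and 3 higher and 2 lower in Dyrk2-KO (3 and 1 under spike-in scaling, 1 and 2 under normexp, 2 and 2 under quantile normalization and in the deposited table). Their part in the *Aldh1a3* values was not tested.

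Of 6 somite markers, beside *Aldh1a2* in the trunk mesoderm, 5 were measured and 1 was changed at E8.5, *Meox2*, higher by 1.03 (0.48 and not called under spike-in scaling), and 0 at E10.5. The summed level was 17.8, 22.2, 15.5 and 14.9, the brightest was *Meox1*, and *Myf5* was below background on all arrays. Of 6 heart and 6 neural markers, 0 were changed between the genotypes at either stage. Under spike-in scaling 3 heart and 4 neural markers were lower at E8.5, and without scaling 1 heart marker. At E10.5 1 neural marker was lower under quantile normalization, normexp and the deposited table, and 2 without scaling. The summed levels were 213, 221, 106.0 and 110.0 for heart, brightest *Myh6*, and 20.0, 20.3, 61.0 and 48.1 for neural tissue, brightest *Nes*. The part of these tissues in the members' values was not tested.

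Of 11 erythrocyte markers, all 11 were higher at E8.5 on the array labelled Dyrk2-KO and 7 at E10.5, or 6 under quantile normalization, without scaling and in the deposited table. Their summed level was 17.4, 384, 1377 and 1603, and the brightest, *Hbb-bh1*, read 3.37, 7.15, 8.19 and 8.40. The WT E8.5 array was thus the lowest of the 4 for these markers, as it was for the members *Aldh1a1*, *Aldh1a3*, *Cyp26b1* and *Crabp1*. That array was also the lowest for *Adh1* and *Meox2*, and the highest for *Rbp4*, *Ttr* and *Cdx1*. The part of erythrocytes in the E8.5 differences of *Aldh1a3* and *Cyp26b1* was not tested.

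Of the 7 decidua and trophoblast markers on the arrays, 6 were measured at E8.5, with 2 higher and 2 lower. Their summed level was 19.2, 14.3, 17.3 and 20.5, and *Tpbpa* was below background on all arrays. The brightest, *Gcm1*, is measured by 3 probes placed on chromosomes 7, 7 and 5 of mm9, while the gene lies on chromosome 9. Without *Gcm1*, 5 were measured at E8.5, with *Prl3d1* at least 6.62-fold higher (a log2 ratio of 1.25 under normexp), *Prl8a2* higher by 1.45 and *Pgr* at −0.89 (−0.12 and not called under normexp). At E10.5, 0 of 2 were changed. The summed level was then 4.97, 5.37, 1.61 and 1.78, with *Hand1* the brightest, and the part of maternal or placental tissue in the members' values was not tested.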

How the data were processed

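The deposited values are intensities: the authors supplied each array's scanner output (Agilent SurePrint G3 Mouse GE 8x60K v3, 1 colour, Low Input Quick Amp labelling of TRIzol RNA) and a value table in which all 4 arrays have the same distribution. The processed intensity of the scanner output, deposited with background subtracted and detrended but not scaled between arrays, was used. Feature Extraction is version 10.7.1.1 in the file headers and 9.5.1.1 in the submitters' processing notes. Samples were grouped by the labelled genotype and embryonic day, 1 array each, and their number limits the precision.

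Of 62976 spots, 59305 were not controls and gave 56605 probes. Spots marked as outliers (152, 152, 118 and 152) were left out, which left 1 probe without a value, and 0 spots were saturated. Log2 intensities were averaged over the spots of a probe, less the array's own 75th percentile. Probes well above background numbered 31370, 30226, 31818 and 31943. A probe was named by its transcript accession (32994), its gene name (10224) or a synonym (520), and 12867 were left unnamed; the members were taken by gene name alone. A gene is its brightest probe by the mean over the 4 arrays. A bound used the higher of the probe's value and the array's floor (−4.82, −4.53, −4.72 and −4.77), and changes were counted from the values themselves.

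limma 3.58.1 in R 4.3.3 (package data.table, version 1.17.8) fitted genotype and stage, with an intensity trend, to the 32289 probes that passed background on 2 arrays or more, and p-values were adjusted over all of these (Benjamini-Hochberg). It was also run on simulated arrays with the same noise level for every probe and the same genotype difference at both stages. That run does not test how the fit fares with the spread between embryos. Python 3.11.15, numpy 2.4.6, pandas 2.3.3 and matplotlib 3.10.9 did the rest. Probe coordinates are mm9 and promoters GRCm38.p6.

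Named are the members with every probe, *Dyrk2*, the sex-chromosome genes and up to 4 genes a list with the largest fold past 1.5 at each stage. The yolk sac and erythrocyte lists were left out of that last rule. Also named are the brightest gene of each marker list and for 3 members the 3 nearest genes. Genes named for stage differences or opposite directions, markers changed between genotypes and markers below background were chosen after their values were seen. 3 genes of the lists are not used here. Members and lists were chosen with earlier results of these data known. Alternatives were quantile normalization, normexp correction of the background (offset 50), scaling by 7 of 10 spike-in probes, no scaling, the deposited table, other filters, a 2-fold threshold, a Z-score past 2, the mean over probes, and limma without the trend. Chosen after seeing the data were the floor in place of values below background, the 15 nearest repeat-printed probes for a spot SD, the rule of 2 spot SDs for opposite directions, and the decidua list without *Gcm1*.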

Additional observations from a re-analysis of the deposited data

Results flagged for a closer look

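*Cdx1* had log2 ratios of Dyrk2-KO over WT of opposite sign at the 2 stages, −1.13 at the earlier and 0.57 at the later, with 1 array per group. The later ratio is under 1.5-fold and was not counted as changed, though under spike-in scaling it was 0.73, past 1.5-fold. Both were larger than 2 spot SDs (0.16 and 0.15), which measure the array alone and not the spread between embryos. The signs were the same under all the scalings and background corrections tried. The difference between the stages was not tested, because a fit with an interaction leaves no residual degree of freedom. Opposite signs past 2 spot SDs were also found for *Lrp2* (−0.36 and 0.29), *Hoxa5* (0.38 and −0.38) and *Hoxb5* (0.36 and −0.33). The same held for the markers *Nes* (0.56 and −0.31) and *Gcm1* (−0.67 and 0.25). Of these ratios only that of *Gcm1* at E8.5 was past 1.5-fold. Under spike-in scaling *Hoxa5* and *Hoxb5* were lower on the array labelled Dyrk2-KO at both stages, so their signs were no longer opposite. The E8.5 ratio of *Nes* then no longer passed 2 spot SDs.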

How the results depend on the processing

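No paired analysis was possible because the labels pair no embryos: each group has 1 array, with replicate number 1. With 1 array per group no array was left out. The cause of the changes below was not tested, except where a stricter threshold or filter counts fewer genes by its construction.

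Of the members, 2 were changed between the genotypes at E8.5, against 4 under spike-in scaling, 1 without scaling, 1 at 2-fold and 1 with the Z-score. At E10.5 the count of 0 became 1 with no filter, through *Cyp26c1*, which was below background on both arrays. For genotype in limma the count of 0 became 1 without scaling and 1 with no filter, *Aldh1a3* each time. Between the stages the count of 6 became 4 with the Z-score in each genotype, without *Aldh1a2* and *Cyp26b1*. At 2-fold it became 5 in Dyrk2-KO, without *Aldh1a2*.

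Over all genes, 1537 were changed at E8.5, against 420 with normexp, 7895 with spike-in scaling, 2566 without scaling, 1002 above background on both arrays, 3961 with no filter, 567 at 2-fold and 607 with the Z-score. The 1101 at E10.5 became 254 with normexp, 648 above background on both arrays, 3004 with no filter, 412 at 2-fold and 561 with the Z-score. Between the stages, the 6206 in WT became 3400 at 2-fold and 1085 with the Z-score. The 5113 in Dyrk2-KO became 3014 with normexp, 8791 with spike-in scaling, 2791 at 2-fold and 1039 with the Z-score. In limma, 3 genes were called for genotype, against 19 with quantile normalization, 17 with normexp, 21 with spike-in scaling, 436 without scaling, 27 from the deposited table, 7 above background on all 4 arrays, 309 with no filter and 0 without the trend. For stage, 6659 became 1622 with spike-in scaling and 3656 without the trend.

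The share of calls that were lower at E8.5 went from 56.2% to 97.7% under spike-in scaling and 87.3% without scaling, and at E10.5 from 59.4% to 34.4% and 74.7%. With the floor in place of values below background, an alternative chosen after seeing the data, the members' counts were 2, 0, 6 and 6. Of the members' log2 ratios, each counted once per alternative, 142 moved by less than the spot SD, 68 moved by more and 0 that were called reversed. Ratios of the other named genes are not in these counts. Signal near background limits *Aldh1a1* and *Aldh1a3* at E8.5 and *Cyp26c1* at E10.5.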
